A study of Drosophila melanogaster with 46 samples.

Results

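Cytochrome P450 genes were taken as every gene whose symbol began with Cyp and a digit in either of the 2 expression tables deposited for Drosophila melanogaster eye discs. The rule found 81 of the 12884 genes listed in either table. Members were chosen by symbol and by having enough reads in either table to be listed, and no fold change entered the rule. One of the 81, Cyp1, is cyclophilin 1, a protein-folding enzyme without relation to the P450 family, and it was set aside, which left 80 P450 genes. All 80 stood in the table for the Pc mutant and 72 stood in the table for ph. The Release 6 annotation held 83 protein-coding genes with such a name, and Cyp4d14, Cyp4d21 and Cyp9f3 were in neither table.

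The samples were eye discs from wandering L3 larvae, epithelial sacs that later become the eye and antenna of the fly. RNA was sequenced from discs of the group named Mutant_PcXT109_FRT2A, of a strain labelled PCxt109 mutant (2 replicates, about 150 discs each). The control of that mutant is not named in the labels. RNA was also sequenced from discs with RNA interference against ph (BL 64095 x VDRC50028, 4 replicates) and from discs with RNA interference against white (BL 64095 x BL33623, 4 replicates), an eye colour gene that serves as the control. Both RNA interference groups share the BL 64095 parent, and neither the driver nor the cells it acts in is named in the labels. Binding of PSC and Su(z)12 was measured by ChIP-seq in W1118 Oregon-R discs (2 replicates each, about 500 discs each), which carried none of these perturbations.

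Cytochrome P450 enzymes are haem proteins that insert oxygen into small molecules. Insects use some of them to make and inactivate hormones and to build cuticle lipids, and others to clear plant toxins and insecticides, mainly in fat body, gut and Malpighian tubules. Insect P450 genes fall into the CYP2, CYP3, CYP4 and mitochondrial clans, and many sit side by side in clusters of recent duplicates. Pc and ph encode subunits of Polycomb repressive complex 1, as does Psc, whereas Su(z)12 belongs to Polycomb repressive complex 2, which methylates histone H3.

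The 80 genes comprised 37 of the CYP3 clan, 30 of the CYP4 clan, 9 of the mitochondrial clan and 4 of the CYP2 clan. Chromosome arm 2R held 34 of them, 3R 15, X 13, 2L 12 and 3L 6, and chromosome 4 held none. Annotated spans, introns included, ran from 1621 to 9543 bp with a median of 2098 bp, against 2163 bp over all protein-coding genes.

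Each expression table gave 1 mean normalized count, 1 log2 fold change with its standard error (SE) and 1 adjusted p-value per gene, and no value per library. The depth of each library is therefore unknown, and the spread between replicates enters only through the SE. Nothing in the labels states separate animals for the replicates, so p-values may reflect technical spread. A gene was called when the authors' adjusted p-value, from DESeq2's Wald test with Benjamini-Hochberg adjustment over the table, was under 0.05. In the authors' deposited table for Pc, the Pc transcript itself had a log2 fold change of -1.64 ± 0.41 (SE). In the authors' deposited table for ph, ph-p and ph-d had log2 fold changes of -0.80 ± 0.04 and -0.66 ± 0.05. In bulk discs, fewer cells of a type and less RNA per cell cannot be told apart. The eye disc genes ey, so, eya and gl, looked up after the other values were known, had means of 1920 to 6746 in the authors' deposited table for Pc and 2478 to 7470 in that for ph. They were lower in both, with log2 fold changes of -0.70 to -1.06 in the Pc mutant and -2.40 to -5.87 in ph RNAi discs in the authors' deposited tables. Cyp1 had log2 fold changes of 0.04 ± 0.09 in the authors' deposited table for Pc, where it was not called, and 0.24 ± 0.04 in that for ph, where it was.

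Most P450 genes were listed at low levels. Per kilobase of annotated span, the median over P450 genes was 13.0 mean counts in the authors' deposited table for Pc, against 106 over the 12772 located genes. In the authors' deposited table for ph it was 3.47, against 132 over the 11764 located genes, and 12 and 8 P450 genes stood above these all-gene medians in the Pc and the ph table. Since a test rests on reads, the counts themselves are given too. The median over P450 genes of the mean normalized count was 35.9 in the authors' deposited table for Pc, against 367 over all genes listed there. In the authors' deposited table for ph the median was 8.61 over P450 genes, against 482 over all genes. Means ran from 0.242 to 1305 in the first table and from 0.380 to 3280 in the second. Mean counts under 10 were found for 27.5% of P450 genes against 22.5% of all genes in the Pc table, and for 51.4% against 24.7% in the ph table. The 10 highest P450 genes supplied 65.9% of the summed P450 mean counts in the authors' deposited table for Pc and 87.2% in that for ph.

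Per kilobase of span, the highest P450 gene of the Pc table was Cyp304a1, with 370 mean counts per kb in the authors' deposited table. It was followed per kb by Cyp6v1 (303.2), Cyp4e2 (268) and Cyp18a1 (240), which encodes the hydroxylase that inactivates ecdysteroid hormones. Next per kb in the authors' deposited table came Cyp6a17 (238), Cyp6u1 (229), Cyp4g1 (224), Cyp301a1 (221), Cyp6d4 (208) and Cyp6d5 (173). Cyp301a1 acts in adult cuticle formation, Cyp4g1 makes the long hydrocarbons of the cuticle in oenocytes, and Cyp6a17 influences temperature preference. The mean counts behind these 10 values ran from 391 for Cyp6d5 to 1305 for Cyp6v1 in the authors' deposited table.

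The order in the ph table was another. Cyp4p2 came first per kilobase of span in the authors' deposited table for ph, with 1414 mean counts per kb, before Cyp6v1 (457), Cyp4p1 (364), Cyp6u1 (263), Cyp6d4 (239), Cyp4e2 (205), Cyp6a17 (196) and Cyp310a1 (145). Cyp6a20 (81.1) and Cyp6g2 (71.9) followed per kb, and Cyp9f2 and Cyp18a1, at mean counts of 177 and 169, had 65.9 and 37.5 per kb in the authors' deposited table. Cyp4p2 alone made up 32.5% of the summed P450 mean counts there, with a mean count of 3280. Cyp6v1, Cyp6u1, Cyp4e2, Cyp6a17 and Cyp6d4 were among the 10 highest per kb in both tables.

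Several P450 genes stood at very unlike levels in the 2 tables, which were normalized separately and come from unlike strains, so that these levels are set side by side without a test. Cyp4p2 had a mean of 33.2 in the authors' deposited table for Pc and 3280 in that for ph. Its neighbour Cyp4p1 had 21.1 in the authors' deposited table for Pc and 763 in that for ph. In the opposite direction, Cyp4g1 had 510 and 6.74, Cyp6d5 had 391 and 5.83, Cyp304a1 had 788 and 27.1, and Cyp301a1 had 635 and 71.3 in the authors' deposited table for Pc and in that for ph. Marker lists of several tissues had higher median counts in the authors' deposited table for Pc than in that for ph. Among them were fat body (400 and 19.3), muscle (4681 and 382) and oenocyte (79.6 and 27.1). Gut had 18.3 over 16 listed genes and 0.595 over 11, and Malpighian tubule 39.3 over 8 and 2.80 over 6. The haemocyte list went the other way (1213 and 1664), as did all genes (367 and 482). The part of such tissues in the P450 levels was not tested.

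**Figure D1:**
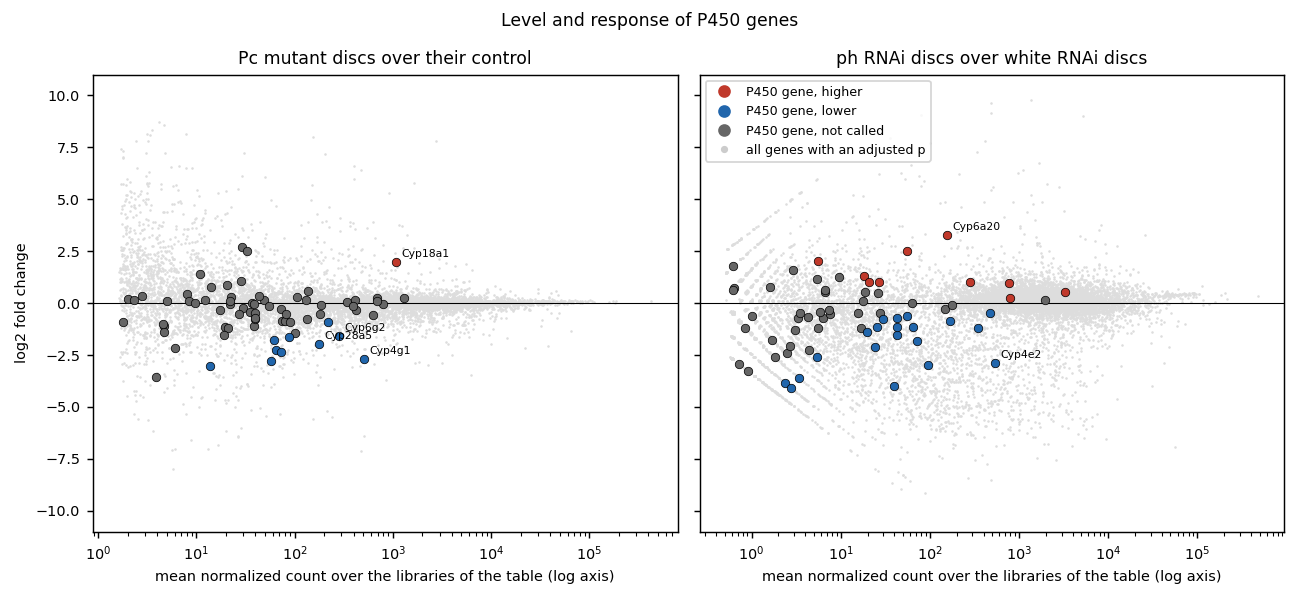
Log2 fold change (vertical axis) against the mean normalized count over the libraries of the table (horizontal axis, log scale) for the Pc mutant over its control and for ph RNAi over white RNAi, as the authors deposited them. Large points are P450 genes, coloured when called higher or lower at an adjusted p under 0.05, and small grey points are all genes with an adjusted p; most P450 points lie at low counts, and Cyp18a1 is the single called increase on the left.

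In Pc mutant discs, 11 of the 71 P450 genes with an adjusted p-value were called in the authors' deposited table, 15.5% of them, against 9.88% of all genes with an adjusted p-value. Only Cyp18a1 was higher and 10 genes were lower, or 1.41% and 14.1% of the P450 genes, against 3.64% and 6.24% of all genes. The median log2 fold change of the P450 genes was -0.27, against 0.02 over all genes in the authors' deposited table. The P450 values were also less precise, with a median SE of 0.61 against 0.16 over all genes. By level, 0% of P450 genes were called below a mean count of 10 against 2.38% of all genes, 16.2% against 7.97% between 10 and 100, and 23.8% against 11.7% above 100. The 9 P450 genes without an adjusted p-value had mean counts of at most 1.37 in the authors' deposited table. Because a gene with few reads gets no call, these counts describe the genes that passed and not all 80.

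Among hormone-related members, Cyp18a1 rose in Pc mutant discs, by 1.96 ± 0.57 (SE) on the log2 scale in the authors' deposited table (adjusted p = 0.00927). This is 3.90-fold higher than in the control, at a mean count of 1081. The other CYP2 clan genes had log2 fold changes of -0.03 (Cyp304a1), 0.02 (Cyp303a1) and -0.27 (Cyp305a1) in the authors' deposited table, without a call. Cyp303a1 is needed for the development of external sensory bristles. Cyp6t3, a CYP3 clan gene reported to act in ecdysone production in the prothoracic gland, had a log2 fold change of 0.57 ± 0.54 and was not called.

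In the CYP3 clan, the group richest in detoxification enzymes, 7 of 34 genes with an adjusted p-value were lower in Pc mutant discs (20.6%, against 6.24% of all genes) and none was higher in the authors' deposited table. In log2 units Cyp28a5 fell by 1.99 (SE 0.41, adjusted p = 4.54e-05) and Cyp28d1, a gene tied to nicotine tolerance, fell by 1.76 (SE 0.34, adjusted p = 1.17e-05). Cyp6g2, whose overexpression can give insecticide resistance, fell by 1.59 (SE 0.33, adjusted p = 8.04e-05) at a mean count of 280. Cyp9b2 fell by 2.36 (SE 0.56), Cyp309a1 by 2.77 (SE 0.85), Cyp6a22 by 2.28 (SE 0.71) and Cyp310a1 by 0.90 (SE 0.22), with adjusted p-values between 0.000705 and 0.0178 in the authors' deposited table. The insecticide resistance gene Cyp6g1, next to Cyp6g2, had a log2 fold change of -0.74 ± 0.65 and was not called.

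In the CYP4 clan, which acts on fatty acids and related lipids, 3 of 24 genes were lower in Pc mutant discs in the authors' deposited table (12.5%, against 6.24% of all genes) and none was higher. Cyp4g1 fell by 2.70 (SE 0.61, adjusted p = 0.000283), which is 6.49-fold lower, at a mean count of 510. Cyp4s3 fell by 3.05 (SE 0.57, adjusted p = 4.42e-06) and Cyp4d1 by 1.63 (SE 0.54, adjusted p = 0.0279), both in the authors' deposited table. Their mean counts there were only 13.7 and 88.3. Cyp4e2, the highest CYP4 gene of that table per kilobase of span, had a log2 fold change of 0.23 ± 0.23 and was not called. None of the 9 mitochondrial clan genes was called by the authors' DESeq2 fit (against 9.88% of all genes), 3 of them had an unadjusted p under 0.05, and 8 had a negative log2 fold change. Of the 80 P450 genes, 22 had an unadjusted p under 0.05 in the authors' deposited table, against 2157 of 12785 genes of all kinds. A negative log2 fold change was found there for 5202 of the 11297 genes of all kinds with an adjusted p-value.

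Markers of other tissues moved in the same table, where 3.64% of all genes with an adjusted p-value were higher and 6.24% lower. Of the fat body markers, 0 were higher and 6 of 14 were lower in Pc mutant discs in the authors' deposited table, with a list median of -1.35. Apoltp had -2.97, Lsp1gamma -2.85 and apolpp -1.96 as log2 fold changes in the authors' deposited table. Muscle markers had 0 higher and 11 of 13 lower, with a median of -1.45. Of 6 oenocyte markers measured, KFase was lower (-0.61) and none was higher, and desatF and Elovl7 were in neither of the authors' deposited tables. Of 16 gut markers none was called by the authors' DESeq2 fit, 3 had an unadjusted p under 0.05, and 15 had a positive log2 fold change, with a list median of 1.87 and a median SE of 1.52. The Malpighian tubule list had 1 of 7 higher (ZnT35C, 1.76) and 0 lower in the authors' deposited table. Glial markers had 0 higher and 2 of 10 lower (Gli -0.25, loco -0.34), haemocyte markers 0 higher and 2 of 13 lower (lz -0.94, atilla -0.56), and tracheal markers 1 higher (trh 1.58) and 1 lower of 5 (Gasp -0.72) in the authors' deposited table. Since lz is also an eye gene, it does not mark haemocytes alone in these discs. Whether the tracheal list, with mean counts of 179 to 33369, marks trachea alone was not tested. Levels per group cannot be summed from a table without libraries, and the part of these tissues in the lower P450 genes was not tested.

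In ph RNAi discs, 30 of the 67 P450 genes with an adjusted p-value were called in the authors' deposited table, 44.8% of them, against 66% of all genes with an adjusted p-value. Of these, 10 were higher (14.9%, against 31.1% of all genes) and 20 were lower (29.9%, against 34.9% of all genes). The median log2 fold change was -0.63 over P450 genes and -0.06 over all genes in the authors' deposited table. The share called was larger among genes with more counts. Below a mean count of 10, 15.6% of P450 genes were called against 18.4% of all genes; between 10 and 100, 69.6% against 64.8%; above 100, 75.0% against 80.6%. Ribosomal protein genes had a median log2 fold change of 0.38 in the authors' deposited table for ph, and centring on them gave 5 higher and 26 lower P450 genes in place of 10 and 20.

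Among hormone-related members, Cyp18a1 had a log2 fold change of -0.87 ± 0.31 in ph RNAi discs (adjusted p = 0.00772), lower than in white RNAi discs, in the authors' deposited table. Cyp303a1, the bristle gene, fell by 0.72 (SE 0.24), while Cyp304a1 rose by 1.00 ± 0.31 and Cyp6t3 by 1.01 ± 0.44 in the authors' deposited table. With centring on the ribosomal protein genes, the increases of Cyp304a1 and Cyp6t3 became 0.61 and 0.63 and were no longer called.

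Of the CYP3 clan genes with an adjusted p-value, 6 of 32 were higher and 6 lower in ph RNAi discs in the authors' deposited table, 18.75% each, against 31.1% higher and 34.9% lower over all genes. Cyp6a13 rose by 2.52 ± 0.34 (adjusted p = 8.67e-13) at a mean count of 55.6. Cyp6a20, a gene that affects male aggression, rose by 3.27 ± 1.03 (adjusted p = 0.0027), 9.65-fold higher, at a mean count of 156. Cyp310a1 rose by 1.01 ± 0.19 (adjusted p = 2.38e-07) and Cyp6u1 by 0.25 ± 0.06 in the authors' deposited table. The sign of Cyp6u1 depended on scaling, since centring on the ribosomal protein genes gave -0.14. The sixth, Cyp6a9, was listed at 2.01 ± 0.87, but its mean count of 5.50 is too low for the fold to be read as a size, and centring on the ribosomal protein genes gave 1.62 without a call.

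On the lower side of the CYP3 clan, Cyp6a17 fell by 1.22 (SE 0.29, adjusted p = 5.10e-05) and Cyp6d2 by 2.11 (SE 0.49, adjusted p = 3.66e-05), as the authors' deposited table for ph gives them. Cyp6d4 fell by 0.47 (SE 0.09) and Cyp28d2, the neighbour of Cyp28d1, by 0.64 (SE 0.22) in the authors' deposited table. Cyp6a16 and Cyp6a2 were also called lower, at mean counts of 2.77 and 3.39, so their log2 values of -4.08 and -3.60 are not read as sizes. Cyp6a2 is known for high expression in insecticide-resistant strains. Cyp6v1, the highest CYP3 gene of the ph table per kilobase of span, had a log2 fold change of 0.13 ± 0.07 and was not called, with an adjusted p of 0.0722 in the authors' deposited table.

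In the CYP4 clan, 3 of 23 genes were higher (13.0%, against 31.1% of all genes) and 7 lower (30.4%, against 34.9%) in ph RNAi discs in the authors' deposited table. The 3 that rose were the adjacent Cyp4p genes, Cyp4p2 by 0.56 ± 0.04 (adjusted p = 4.00e-46), Cyp4p1 by 0.98 ± 0.12 (adjusted p = 3.09e-16) and Cyp4p3 by 1.29 ± 0.48 (adjusted p = 0.0114). Cyp4p3, at a mean count of 18.1, was not called after centring on the ribosomal protein genes, at 0.91. Cyp4e2 fell by 2.89 (SE 0.13, adjusted p = 5.38e-101), by the authors' deposited table, which is 7.40-fold lower at a mean count of 533. Its neighbour Cyp4e1 fell by 1.16 (SE 0.28) and Cyp4ac1 by 2.96 (SE 0.54) in the authors' deposited table. Cyp4g15, a close relative of Cyp4g1, fell by 1.39 (SE 0.54) and Cyp312a1 by 1.52 (SE 0.57). Cyp4d20 and Cyp313a3 were called lower at mean counts of 5.41 and 2.38.

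The mitochondrial clan had 5 of 8 genes lower (62.5%, against 34.9% of all genes) and none higher (against 31.1%) in ph RNAi discs. All 8 log2 fold changes were negative in the authors' deposited table, with a median of -1.14. Among all genes with an adjusted p-value, 5909 of 11009 were negative. Cyp12c1 fell by 3.99 (SE 0.66, adjusted p = 4.19e-09) and Cyp301a1 by 1.84 (SE 0.23, adjusted p = 3.73e-15). Cyp49a1 fell by 1.15 (SE 0.37), Cyp12e1 by 1.13 (SE 0.33) and Cyp12a5 by 0.78 (SE 0.32) in the authors' deposited table. Cyp12a4, whose overexpression gives resistance to lufenuron, had -0.46 ± 0.33 and was not called. Cyp12d1-p and Cyp12d1-d are nearly identical copies, so how their reads were divided is uncertain, and neither was called in a table that listed it.

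**Figure D2:**
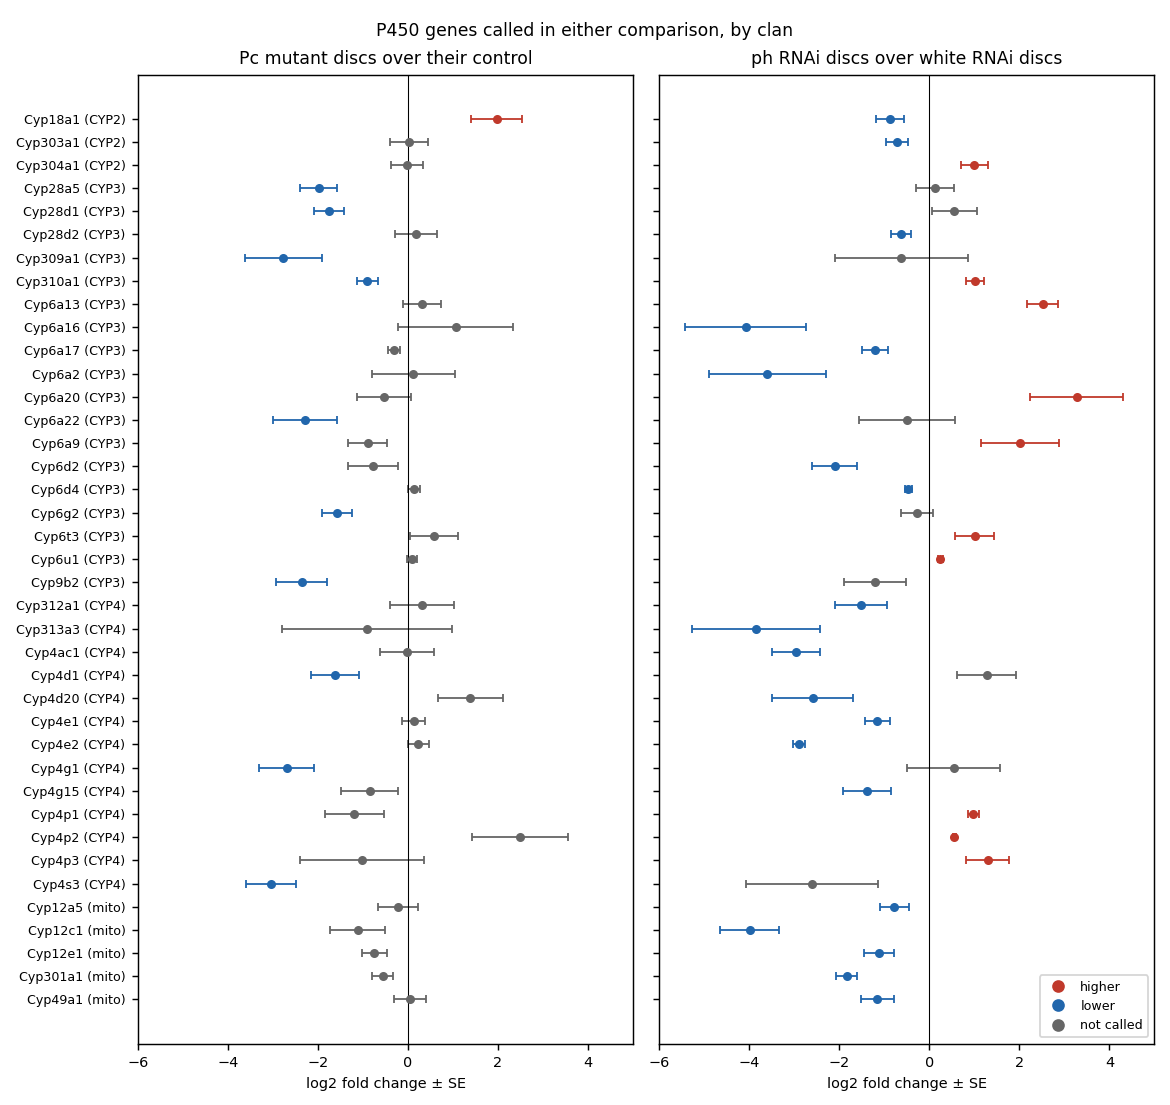
Log2 fold change with its standard error (horizontal axis) for the 39 P450 genes called in either of the authors' deposited tables, ordered by clan, for Pc mutant discs over their control and for ph RNAi over white RNAi. Cyp18a1 and Cyp310a1 are the 2 genes coloured in both panels, with opposite signs, and all called genes of the mitochondrial clan are lower under ph RNAi.

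Tissue markers moved in the ph table too, where 31.1% of all genes with an adjusted p-value were higher and 34.9% lower. Haemocyte markers had 0 higher and 12 of 13 lower in ph RNAi discs, with a median of -2.87 in the authors' deposited table. PPO2 and PPO1 had log2 fold changes of -3.13 and -3.01. The listed lz had -5.38, but it does not mark haemocytes alone in eye discs. Muscle markers had 0 higher and 10 of 13 lower, and tracheal markers 1 higher (trh 4.77) and 4 lower of 5. These 4 were Gasp (-1.35), serp (-2.15), btl (-2.43) and verm (-0.57). Mean counts of the tracheal list ran from 80.2 to 22436, and whether it marks trachea alone in discs was not tested. Fat body markers had 1 higher (ppl 1.12) and 2 of 15 lower (Yp2 -1.63, Adgf-D -1.34) in the authors' deposited table, while the Lsp1 genes were not called. Oenocyte markers had 2 higher and 3 lower of 5 (Desat1 1.01, KFase -1.49, FASN3 -1.39), and glial markers 4 higher and 6 lower of 10 (Gli -1.31, nrv2 0.48, moody 0.50) in the authors' deposited table. Malpighian tubule markers had 0 higher and 2 of 6 lower (NKCC -1.48, Irk3 -0.67), and of 6 gut markers none was called by the authors' DESeq2 fit and 0 had an unadjusted p under 0.05. The part of these tissues in the P450 changes was not tested.

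Few P450 genes were called in both comparisons. Of the 65 with an adjusted p-value in both of the authors' deposited tables, 2 were called in both, against 8.07% of all genes. Of the same 65, 2 were called with opposite signs, against 193 of 10588 genes of all kinds (1.82%). None was called in both with the same sign, against 6.24% of all genes. Of the 854 genes of all kinds called in both, 193 had opposite signs and 661 the same sign. Cyp18a1 was higher in Pc mutant discs (1.96) and lower in ph RNAi discs (-0.87), and Cyp310a1 was lower in Pc mutant discs (-0.90) and higher in ph RNAi discs (1.01) in the authors' deposited tables. Of the 10 P450 genes lower in Pc mutant discs, 9 were not called in ph RNAi discs (90%), against 20.6% of the 680 genes of all kinds lower in Pc mutant discs. Of these 9, Cyp309a1, Cyp4s3, Cyp6a22, Cyp4g1 and Cyp4d1 had mean counts of only 1.00 to 9.58 in the ph table. Below a mean count of 10, 18.4% of all genes were called there, against 80.6% above 100. The remaining ones had mean counts of 17.1 to 147. Whether these genes respond unlike other genes was not tested. Of the 20 lower in ph RNAi discs, 19 were not called in Pc mutant discs (95%), against 83.4% of the 3815 genes of all kinds. In all, 39 P450 genes were called in at least 1 table and 41 in neither. Of those 41, 26 were tested in both tables. The rest lacked an adjusted p-value or a row in at least 1 table. The share of all genes called in at least 1 table was not computed, so these counts are not read as a result about P450 genes.

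The difference of the log2 fold changes, Pc minus ph, was tested for each of 11595 genes by a z test on the root of the summed squared standard errors, with p-values adjusted by Benjamini-Hochberg. It differed from 0 for 22 of 71 P450 genes, 31.0%, against 45.1% of all genes. The Pc value was above the ph value for 12 of them and below it for 10. The difference was 3.11 ± 0.27 for Cyp4e2 (adjusted p = 1.58e-29), 2.84 ± 0.65 for Cyp18a1 (adjusted p = 5.31e-05) and -1.92 ± 0.29 for Cyp310a1 (adjusted p = 6.15e-10). For Cyp12c1, Cyp4ac1, Cyp301a1 and Cyp4e1 the ph fold change was the lower one, with differences of 2.87, 2.94, 1.27 and 1.29. For Cyp28a5, Cyp28d1 and Cyp4g1 the Pc fold change was the lower one, with differences of -2.10, -2.32 and -3.24, and Cyp6a13 and Cyp4p1 had differences of -2.21 and -2.17. Each fold change is against its own control, so these values compare responses and not levels. The test takes the tables to share no library, which the labels do not state, and the perturbed gene, strain and control of the 2 comparisons cannot be told apart in it.

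The enzymes that make ecdysone include further P450 proteins under the names phm, dib, sad, shd, spo and spok, which the name rule does not reach. Together with nvd and sro they form the 8 genes listed here for the ecdysteroid pathway, which need not be all of it. Most of its steps in the larva run in the prothoracic gland, while shd makes the active hormone in peripheral tissue and spo acts in embryo and ovary. In Pc mutant discs 0 of these 8 genes were higher and 6 were lower (75%, against 6.24% of all genes) in the authors' deposited table, with spok at -1.56, nvd at -1.24 and sad at -1.30. In ph RNAi discs 0 were higher and 7 were lower (87.5%, against 34.9% of all genes), with dib at -2.67, sro at -2.07 and nvd at -2.13 in the authors' deposited table. Mean counts of spok were 4058 in the authors' deposited table for Pc and 2828 in that for ph. Cyp18a1, which acts on the products of this pathway, went the opposite way in Pc mutant discs and the same way in ph RNAi discs; how far gland tissue enters either value was not tested.

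P450 enzymes take electrons from partner proteins, Cpr in the endoplasmic reticulum and dare with ferredoxins in mitochondria. Of 6 genes listed for this part, 0 were higher and 3 lower in Pc mutant discs (50%, against 6.24% of all genes). The 3 lower genes were Cyt-b5-r (-2.99), Cyt-b5 (-0.45) and Fdx2 (-0.41) in the authors' deposited table. Cyt-b5-r is related to cytochrome b5 by name, and a part in P450 reactions is not established for it. The 50% is therefore not read as a fall of the partners. In ph RNAi discs Fdx1 was higher (0.84) and Cpr (-0.44) and dare (-0.40) were lower in the authors' deposited table, 50% called against 66% of all genes. Of 11 listed regulators of detoxification and hormone response, ss alone was called in Pc mutant discs (-1.02), 9.09% against 9.88% of all genes. Since ss also patterns the antenna, its fall is not read as a change in detoxification. In ph RNAi discs 3 were higher and 6 lower, 81.8% called against 66% of all genes. There cnc, whose products include the activator of the oxidative stress response, had 1.62, ss -1.93 and Hnf4 -0.74 in the authors' deposited table. A value per gene does not tell which product of cnc rose, so its rise is not read as a stress response. Glutathione S-transferase genes, which conjugate the products of P450 reactions, had 4 higher and 3 lower of 34 in Pc mutant discs. This is 20.6% called, against 9.88% of all genes. The smallest adjusted p-values were at GstD3, GstT3 and GstD1, with log2 fold changes of 0.55, 0.76 and 0.43. In ph RNAi discs 8 were higher and 8 lower of 31 in the authors' deposited table, 51.6% called against 66% of all genes. UDP-glycosyltransferase genes had 0 called of 14 by the authors' DESeq2 fit in Pc mutant discs (against 9.88% of all genes), 1 of them with an unadjusted p under 0.05. In ph RNAi discs 2 were higher and 3 lower of 8 in the authors' deposited table, 62.5% called against 66% of all genes.

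Clusters were formed from annotated P450 genes with at most 10000 bp between neighbours on an arm. There were 16 clusters, 8 of 2 genes, 7 of 3 genes and 1 of 9 genes, and they held 43 of the 80 P450 genes. In Pc mutant discs 5 of 39 clustered genes were lower (12.8%) and none higher, and outside clusters 5 of 32 were lower (15.6%) and 1 higher, against 6.24% lower and 3.64% higher over all genes in the authors' deposited table. In ph RNAi discs 7 of 37 clustered genes were higher and 7 lower (18.9% each). Outside clusters 3 of 30 were higher (10%) and 13 lower (43.3%), against 31.1% higher and 34.9% lower over all genes in the authors' deposited table. Neighbouring copies are alike in sequence, and the sources used here do not say how reads matching several copies were counted. The spans of Cyp6g1 and Cyp6g2 overlap, as do those of Cyp6a19 and Cyp6a9, so their counts may share reads.

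The Cyp6a cluster, from Cyp6a22 to Cyp317a1 on arm 2R (14871366 to 14903095, 31730 bp), held 9 P450 genes and no other gene. Its members were called in both directions in the authors' deposited table for ph, while in that for Pc 1 was called. The positive Pc values, 0.34 for Cyp6a21 and 0.10 for Cyp6a8, had SEs of 1.59 and 1.08. The Pc values thus do not show members moving apart. Cyp6a22 at one end was lower in Pc mutant discs, Cyp6a17 beside it was lower in ph RNAi discs, and Cyp6a9 and Cyp6a20 in the middle were higher in ph RNAi discs, Cyp6a9 not after centring on the ribosomal protein genes. Log2 fold changes in the cluster ran from -2.28 to 0.34 in Pc mutant discs and from -1.22 to 3.27 in ph RNAi discs in the authors' deposited tables.

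The Cyp4p cluster (2R, 9237512 to 9244410, 6899 bp) was the 1 cluster in which every member was called in the same direction, higher in ph RNAi discs, in the authors' deposited tables. In Pc mutant discs the same 3 genes had 2.49, -1.20 and -1.03 for Cyp4p2, Cyp4p1 and Cyp4p3 and none was called. In the cluster of Cyp4ad1, Cyp4e2 and Cyp4e1 (2R, 8439395 to 8449745), 2 of 3 genes were lower in ph RNAi discs and none was called in the Pc mutant. The pair Cyp28d2 and Cyp28d1 (2L, 5207267 to 5212445) split, with Cyp28d1 lower in Pc mutant discs and Cyp28d2 lower in ph RNAi discs in the authors' deposited tables. The 2 genes of the Cyp9b pair (2R, 7127838 to 7132139) had -2.18 for Cyp9b1, which was not called, and -2.36 for Cyp9b2, which was, in Pc mutant discs.

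**Figure D3:**
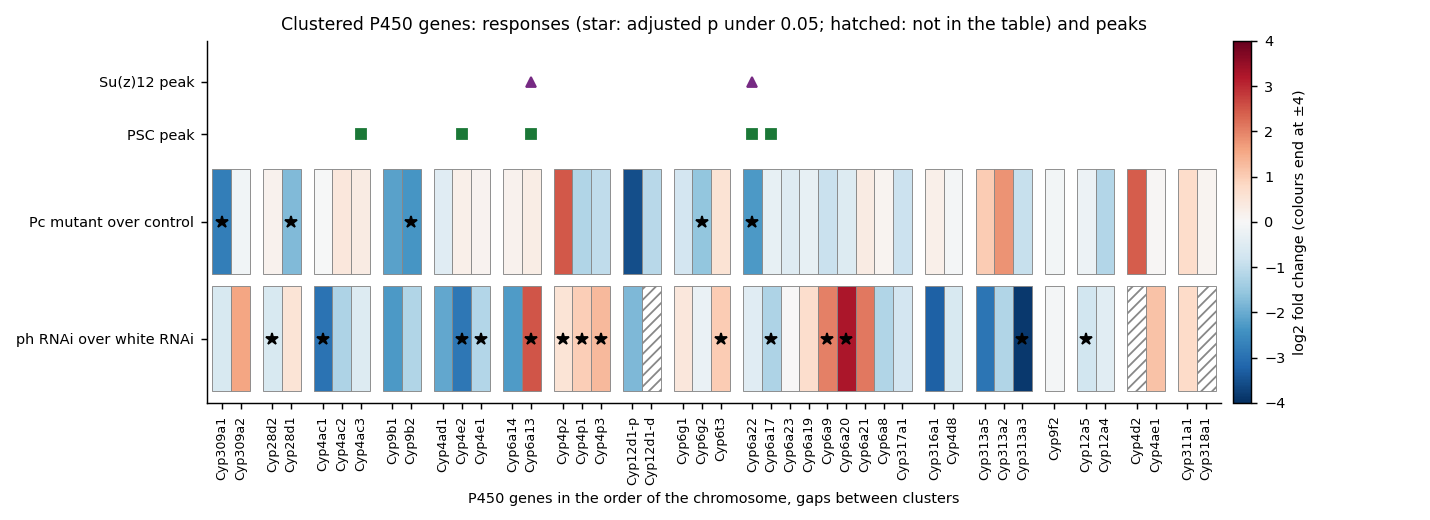
Clustered P450 genes in chromosome order (horizontal axis, gaps between clusters), with the log2 fold change of Pc mutant over control and of ph RNAi over white RNAi as colour, stars for genes called at an adjusted p under 0.05, hatching for genes not in the table, and marks for merged PSC and Su(z)12 peaks. The Cyp4p trio is starred throughout in the ph row and has no peak, and the 9-gene Cyp6a cluster holds stars of both directions in that row.

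P450 genes seldom carried a merged peak. A peak counted when it overlapped the gene or the 1000 bp around it by at least 1 bp. A PSC peak was found at 10 of 80 P450 genes, 12.5%, against 30.3% of 13922 protein-coding genes. A Su(z)12 peak was found at 3, or 3.75%, against 10.4%. Both proteins were found at Cyp6a13 and Cyp6a22, 2.50% against 9.65% of coding genes, PSC alone at 8 genes (20.7% of coding genes) and Su(z)12 alone at Cyp12e1 (0.733% of coding genes), and 69 P450 genes had neither. Among genes of 1500 to 5000 bp, where 76 of the P450 genes fall, the shares were 13.2% against 27.4% for PSC and 3.95% against 8.34% for Su(z)12. With a window of 5000 bp they were 26.25% against 46.8% for PSC and 10% against 16.5% for Su(z)12. The median distance of a P450 gene to the nearest PSC peak was 9730 bp, and to the nearest Su(z)12 peak 55847 bp. The lists hold 5999 PSC and 2205 Su(z)12 peaks, so the 2 distances are not compared. Distances were not computed over all genes, so these are not read as a result about P450 genes.

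**Figure D4:**
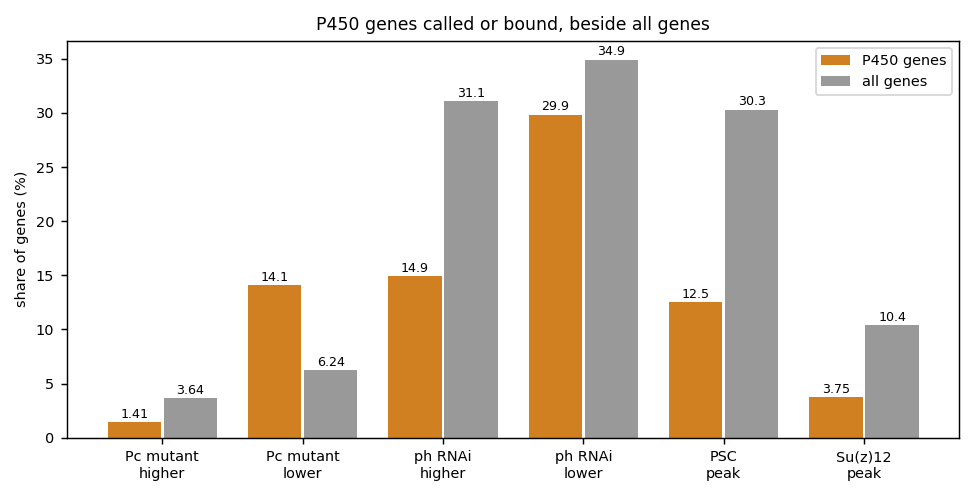
Share of P450 genes (orange) and of all genes (grey) that were called higher or lower in each comparison, among genes with an adjusted p, and that had a PSC or Su(z)12 merged peak overlapping the gene or its 1000 bp margin, among P450 genes and all protein-coding genes (vertical axis, percent). The P450 share was above that of all genes for genes lower in Pc mutant discs alone (14.1% against 6.24%).

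The peak folds given here are the authors' own enrichment values and are compared only within a list. The 10 distinct PSC peaks at P450 genes had a median fold of 2.29, against 1.97 over all 5999 merged PSC peaks, and 6 of the 10 overlapped a peak in both replicates. The 3 Su(z)12 peaks had a median fold of 2.04, against 1.98 over all 2205, and only that at Cyp6a22 was found in both replicates. The strongest PSC peak was at Cyp313b1 (fold 3.65; 3R, 8642304 to 8642991), with its summit 255 bp outside the gene, and it also overlapped a pair of tyrosine tRNA genes. Cyp313b1 was not called in either of the authors' deposited tables.

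At Cyp6a13, a PSC peak of fold 3.55 (2R, 8572623 to 8573008) and a Su(z)12 peak of fold 2.17 (8572668 to 8572919) overlapped each other, with summits 644 and 620 bp beyond the higher-coordinate end of the gene. The PSC peak was found in both replicates and the Su(z)12 peak in neither replicate's own list. These peaks overlapped no other gene, and the nearest other gene, CG42326, lay 577 bp from the PSC summit. Cyp6a13 was higher in ph RNAi discs (2.52) and not called in the Pc mutant (0.31 ± 0.42) in the authors' deposited tables.

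At Cyp6a22, a PSC peak of fold 2.93 (2R, 14870466 to 14871418) and a Su(z)12 peak of fold 2.04 lay at the lower-coordinate end, both found in both replicates, and both also overlapped the neighbouring gene Pcf11. A further PSC peak of fold 2.49 lay between Cyp6a22 and Cyp6a17, with its summit 28 bp inside Cyp6a17. Cyp6a22 was lower in Pc mutant discs and Cyp6a17 lower in ph RNAi discs in the authors' deposited tables.

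At Cyp4e2, a PSC peak of fold 1.81 (2R, 8444190 to 8444830) was found in both replicates, with its summit 135 bp inside the gene and no other gene overlapped. Cyp4e2 was the P450 gene with the smallest adjusted p-value in the authors' deposited table for ph, where it was lower. Cyp6a16 had a PSC peak of fold 2.26 and Cyp12e1 a Su(z)12 peak of fold 1.74, each found in replicate 1 alone, and both genes were lower in ph RNAi discs in the authors' deposited table. The PSC peak of Cyp6u1 (fold 2.12) overlapped mim and CheB42c, that of Cyp9c1 (fold 2.33) CG13594, that of Cyp4ac3 (fold 1.50) tkv and that of Cyp6v1 (fold 1.73) an antisense RNA gene. The peaks of Cyp4ac3 and Cyp6v1 were in neither replicate's own list.

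**Figure D5:**
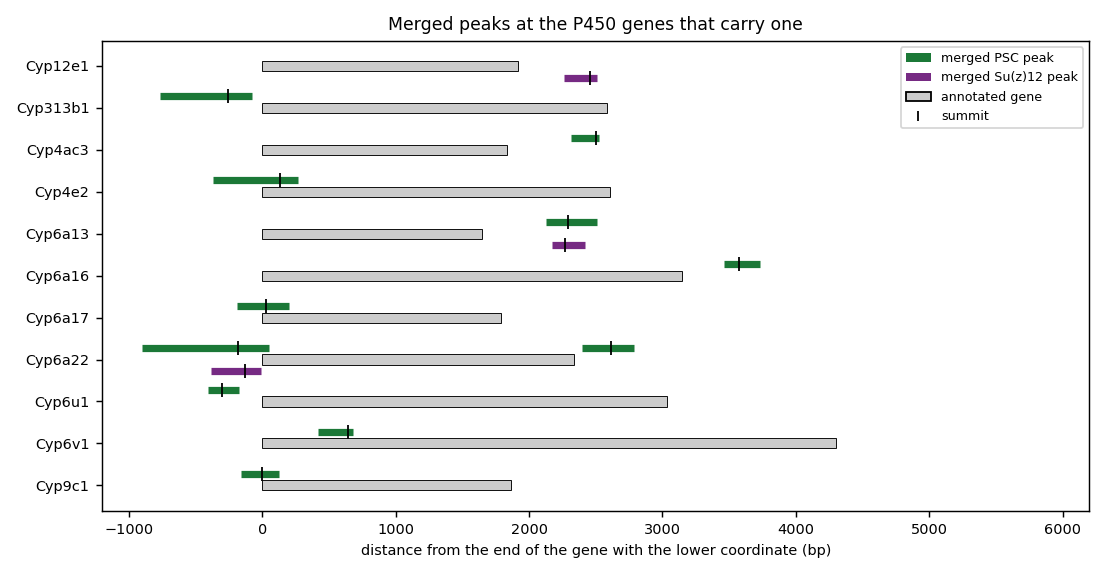
Merged PSC and Su(z)12 peaks at the 11 P450 genes that carry one, drawn to scale against the distance from the end of the gene with the lower coordinate (horizontal axis, bp), with grey bars for the annotated gene and ticks for summits. Transcription direction was not available, so ends are ordered by coordinate; every summit lies within 673 bp of a gene end.

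Genes with and without a peak were called. Of the 57 P450 genes without a peak and with an adjusted p-value, 42.1% were called in ph RNAi discs in the authors' deposited table, 8 higher and 16 lower, against 66% of all genes. Of the 7 genes with PSC alone, 1 was higher and 3 were lower, and of the 2 genes with both proteins 1 was higher. In Pc mutant discs 10 of 61 genes without a peak were called (16.4%, against 9.88% of all genes), 1 of the 2 with both proteins and none of the 7 with PSC alone in the authors' deposited table, where 3 of those 7 had an unadjusted p under 0.05 in the DESeq2 fit. Over all genes of the Pc table, 2157 of 12785 had such an unadjusted p. With 11 genes carrying a peak, these shares rest on few genes. Cyp18a1, the single called increase in the Pc mutant, lay 40830 bp from the nearest PSC peak and 90658 bp from the nearest Su(z)12 peak.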

How the data were processed

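Gene expression was measured by poly-A RNA-seq and protein binding by ChIP-seq in eye discs. Per the submitters' processing notes, the build was dm6 and the tools included STAR, HTSeq, DESeq2 1.22.1, Bowtie2 and MACS2 2.1.1.20160309, with no settings. The authors deposited 1 table per comparison with the columns of DESeq2. The mean normalized count is a signal averaged over the libraries of a table, per the file headers. Log2 fold changes with standard errors were computed by the authors, and dividing one by the other returned the deposited Wald score in 100% of genes. Each p-value and adjusted p-value was deposited by the authors. In the deposited peak lists the fold is the ratio over local background as MACS2 writes it, the score is its whole-number score, and the −log10 values are those of p and q. Lists called merged combine both replicates per the labels' design text, and the sources used here do not say at which step they were merged.

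From these files, calls were counted at an adjusted p under 0.05 (python 3.11.15, pandas 2.3.3, scipy 1.17.1), the log2 fold changes were compared by a z test, and peaks were overlapped with genes of the RefSeq table for Release 6, which gives no strand. The z test was first run on simulated data with independent normal noise of the deposited standard errors. Such a run could check the calculation but not shared libraries or the standard errors themselves. Of the genes listed, 12772 in the Pc table and 11764 in the ph table were located. Levels were ranked between genes per kilobase of span. Gene clans were assigned from family names. The members and the gene lists were chosen with earlier results of these data known. The text names every P450 gene called in either table, every one with a merged peak, the 10 with the highest mean count in each table, and up to 3 called members of each list by adjusted p; the eye disc genes were added later. Alternatives changed the threshold, the filter on level or fold, the adjustment, the centring, the window, the peak list and the cluster gap. Histone mark, input, embryo and Hi-C samples were not analysed here.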

Additional observations from a re-analysis of the deposited data

Results flagged for a closer look

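Cyp18a1, the ecdysteroid-inactivating hydroxylase, had opposite responses in the 2 comparisons. Its log2 fold change was 1.96 ± 0.57 (SE) in Pc mutant discs and -0.87 ± 0.31 in ph RNAi discs in the authors' deposited tables. The difference, Pc minus ph, was 2.84 ± 0.65 (z test, Benjamini-Hochberg adjusted p = 5.31e-05). Cyp310a1, a CYP3 clan gene, had the opposite pattern, with -0.90 ± 0.22 in Pc mutant discs and 1.01 ± 0.19 in ph RNAi discs in the authors' deposited tables. Its difference was -1.92 ± 0.29 (adjusted p = 6.15e-10). These were the only 2 of 65 P450 genes called in both tables. Neither gene had a merged PSC or Su(z)12 peak within 1000 bp. The strains and controls differ between the tables, so the perturbed gene and the background cannot be told apart.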

How the results depend on the processing

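No paired analysis was possible because the expression tables hold no value per sample; the replicate block was therefore not run, nor was the window at start sites, since the annotation gives no strand. Against 1 higher in Pc mutant discs, an adjusted p under 0.1 gave 2 (Cyp4c3 was added). Against 10 higher in ph RNAi discs, requiring a mean count of at least 50 gave 6, an absolute log2 fold change of at least 1 gave 6, and centring on the ribosomal protein median gave 5, where Cyp6u1 turned to -0.14. Against 20 lower in ph RNAi discs, the mean count of at least 50 gave 8, and for the 22 differences between comparisons it gave 9. A filter on level or fold can only lower such counts by construction, and for the centring the cause was not tested. The counts of genes lower in Pc mutant discs stayed within 1.5 times of 10 under every alternative run. For 10 genes with a PSC peak, the gene body alone gave 5, a 5000 bp margin 21, peaks found in both replicates 6, a fold of at least 3 gave 2, and single replicates 7 to 8. For 3 genes with a Su(z)12 peak these settings gave 0, 8, 1, 0 and 1 to 2, and for 2 genes with both 0, 7, 1, 0 and 1 to 1. The clustered genes numbered 40 to 46 against 43. With unknown depth and no values per library, leaving out an RNA replicate could not be tried.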
